A study of Mus musculus with 8 samples.

Results

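The tropomyosins, calponins, transgelins and cysteine and glycine-rich proteins (CSRPs) bind or organise actin filaments, and 10 of their genes (*Tpm1*, *Tpm2*, *Tpm3*, *Tpm4*, *Cnn2*, *Cnn3*, *Tagln*, *Tagln2*, *Csrp1* and *Csrp2*) were examined in single endocardium cells of the mouse embryo. The arrays carried 21 probes for these genes among 55681 probes and 35715 gene names. The genes were chosen by name with measured values of these same cells known, so that their differences between genotypes are given as a description and no test was made of them. Each of 8 one-colour Agilent arrays held amplified cDNA of 1 cell. There were 4 WT cells, of genotype *Mesp1*+/+ *Sox17*flox/flox, and 4 KO cells, of genotype *Mesp1*Cre/+ *Sox17*flox/flox. Both groups therefore carried floxed *Sox17* alleles, and only the KO cells carried Cre, whose *Mesp1* driver is active in early mesoderm and thus in every cardiac lineage and not in the endocardium alone. Embryos were at embryonic day 8.5 with 9 somites, and the labels give the tissue as heart tube and its compartment as endocardium. Since no source names the embryo a cell came from, each genotype counts as 1 sample, and the SD given with a difference is the spread between cells pooled over the genotypes.

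Tropomyosin forms a coiled-coil cable along the groove of the actin filament and governs which other proteins, myosin among them, gain access to it. Its genes give many isoforms by alternative promoters and exons, some in sarcomeres and others in the cytoskeleton of non-muscle cells. Calponins and transgelins share a calponin homology domain and bind and stabilise actin bundles, whereas CSRPs are LIM-domain proteins that sit at actin filaments and, in the nucleus, with regulators of muscle genes. *Tagln* and *Csrp2* are known from smooth muscle and its precursors, and many genes of this kind are regulated by serum response factor (SRF) and its myocardin-family partners, which read the state of the actin pool.

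The identity of each probe matters for these genes because their transcripts differ in exons. The 5 *Tpm1* probes and the *Csrp2* probe are shown by the first 30 of their 60 bases, as the files give them, since the largest differences and the largest disagreement between probes of 1 gene came from them. Capitals mark the bases that *Tpm1* probes 3 and 4 have in common, which is where these neighbouring probes overlap.
*Tpm1* probe 1: gaaaaccttagtatgcaccagatgctggat
*Tpm1* probe 2: ggaagaacagttaagaataatggatcagac
*Tpm1* probe 3: ccttagggccaggcACAGACTGCTTTCTAT
*Tpm1* probe 4: ACAGACTGCTTTCTATTGTACAGAAGCAAT
*Tpm1* probe 5: gagggctgcctgcctggcccgtgtttccct
*Csrp2* probe: acagagaatctccattaccaaactgcagat

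On genome build mm9, the *Tpm1* probes lie on the minus strand of chromosome 9, at 66871166 to 66871225 (probe 1), 66880274 to 66880333 (probe 2), 66875796 to 66875855 (probe 3), 66875782 to 66875841 (probe 4) and 66872131 to 66872190 (probe 5). The *Csrp2* probe lies on the plus strand of chromosome 10 at 110376366 to 110376425. Which exon or untranslated region each lies in was not analysed here. The files list 4 transcripts for *Tpm1* probe 1 and 3 for probe 2, of which 1 is shared. Probe 1 shares no listed transcript with probes 3, 4 or 5, and probes 3 and 4 share all 3 of theirs. Probe 2 shares 1 with each of probes 3 and 4, and none with probe 5. Over 191 pairs of probes for different genes of the set, the longest run of bases in common was 12, between *Tpm2* and *Tpm3*.

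Signals are given as the log2 of the scaled intensity, with values under 50 set to a floor of 50, which is 5.64 on the log2 scale. Cells at the floor cannot be ranked against each other. A probe was taken as detected in a cell where the scanner software called its signal well above background. Between 11370 and 18175 probes were detected per cell, and the ranges of WT and KO cells overlapped. The targeted gene could not serve to check the labels: neither of the 2 *Sox17* probes was detected in any of the 8 cells. By the looser call of a positive and significant signal, 1 of them passed in WT cells 2 and 3 and KO cells 2, 3 and 4. Its value was at the floor in all 8 cells. All 8 arrays were on 1 slide with 1 scan day, but WT and KO arrays lay in different parts of it, so that slide position and genotype cannot be told apart. In 3 cells labelled as endocardium, WT cell 2, KO cell 1 and KO cell 4, the summed signal of cardiomyocyte markers exceeded that of endothelial markers. The marker sums of these cells are given with the results on cell types, and the main results are also given with these cells left out.

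*Tpm1* gave different pictures depending on the probe, and its first probe showed the second largest difference among the probes of the set. The signal of probe 1 was at the floor and not detected in WT cells 1 to 3, and 11.35 in WT cell 4. In KO cells 1 to 4 it was 8.64, 13.61, 9.83 and 9.50. All 4 KO cells were thus above 3 of the WT cells, while WT cell 4 was above all KO cells but KO cell 2, and the genotypes overlapped. Subtracting the WT from the KO mean of log2 values gave a difference of 3.32 (a fold of just under 10, SD between cells 2.55). It was 2.25 without KO cell 2 and 4.75 without WT cell 4, the lowest and highest values on leaving out 1 cell. With 3 WT cells not detected, its size was set by the floor, at 5.05 with a floor of 10 and 1.82, under 5-fold, with a floor of 200.

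Probe 2 of *Tpm1* followed the first in 7 of the 8 cells. It was at the floor in WT cells 1 to 3 and 10.33 in WT cell 4, and read 8.85, 12.71 and 10.04 in KO cells 1 to 3. KO cell 4, which had signal at probe 1, was at the floor at probe 2. The difference was 2.50 (5.64-fold, SD 2.65) with 1.36 as its lowest value on leaving out a cell (KO cell 2) and 3.72 as its highest (KO cell 4). Over the 8 cells, Pearson's r between the 2 probes was 0.89 as a description, with the 3 WT cells at the floor on both.

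**Figure D1:**
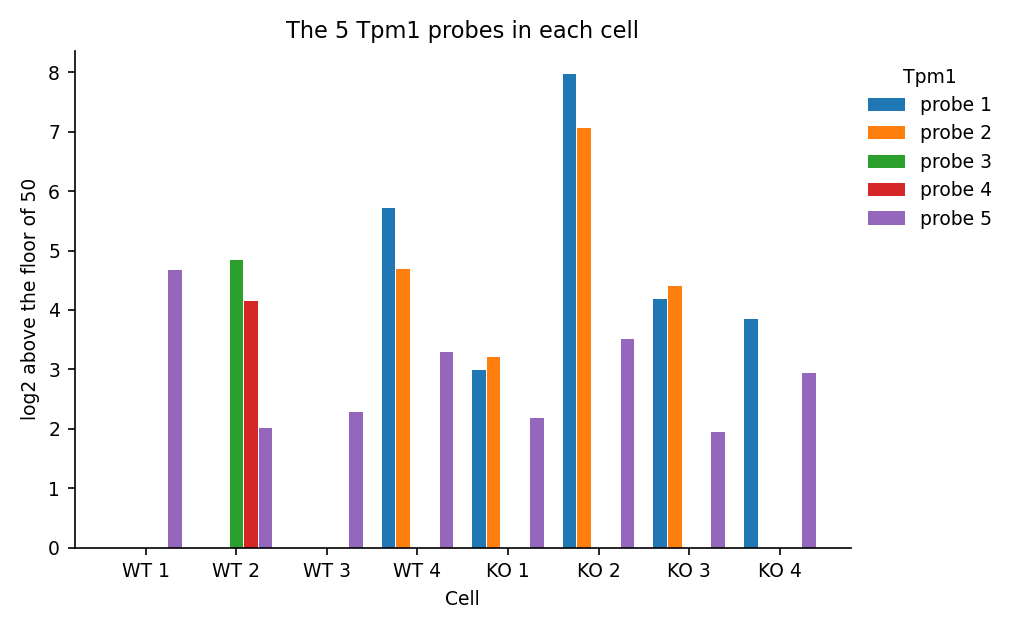
The 5 *Tpm1* probes in each of the 8 cells. Bars give the log2 scaled intensity above the floor of 50, and a missing bar is a value at the floor. Probes 1 and 2 have bars in WT cell 4 and in KO cells, probes 3 and 4 in WT cell 2 alone, and probe 5 in all cells.

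The overlapping *Tpm1* probes 3 and 4 were detected in WT cell 2 alone, with signals of 10.48 and 9.80. Every other cell, KO cells included, was at the floor on both. Their differences were -1.21 and -1.04 (2.31-fold and 2.06-fold lower in KO cells), and without WT cell 2 both were 0. These folds depend on the floor, with differences of -0.71 and -0.54 at a floor of 200 and -1.79 and -1.62 at a floor of 10. Since the bases of these probes overlap, they are not separate evidence. WT cell 2 was also at the floor on probes 1 and 2.

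Probe 5 of *Tpm1* was detected in all 8 cells. WT cells 1 to 4 read 10.32, 7.66, 7.93 and 8.93, and KO cells 1 to 4 read 7.83, 9.16, 7.60 and 8.59. The highest cell was WT cell 1, which had no signal on the other 4 probes, and the KO cells lay within the range of the WT cells apart from KO cell 3, just under it. The difference was -0.42 (SD 0.99), and became 0.12 without WT cell 1 and 0.01 under quantile normalization. Pearson's r with probe 1 was 0.11 over the 8 cells. Every cell therefore held some *Tpm1* signal, and the probes differed in which cells they called high.

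*Tpm2*, which encodes the beta-tropomyosin of slow skeletal and smooth muscle, was at the limit of measurement. One of its 2 probes was detected in no cell. The other was detected in all 4 WT and 2 KO cells, but was above the floor only in WT cell 1 (5.92) and KO cell 4 (5.79). Its difference of -0.03 (SD 0.11) changed sign with the scaling.

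*Tpm3* and *Tpm4*, whose products include cytoskeletal tropomyosins of non-muscle cells, were bright in every cell. At the second *Tpm3* probe, WT cells 1 to 4 read 16.09, 14.81, 16.54 and 15.26, and KO cells 1 to 4 read 14.67, 15.55, 16.01 and 16.52. The ranges of the genotypes almost coincided, and the difference of 0.01 (SD 0.79) was well inside the spread between cells and fell to -0.62 under quantile normalization. Of the other *Tpm3* probes, the first was detected in no cell, and the third in KO cell 1 alone, under the floor.

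The *Tpm4* signal was 12.49, 13.65, 13.31 and 14.16 in WT cells 1 to 4. It was 13.44, 13.12, 14.42 and 15.41 in KO cells 1 to 4. KO cells 3 and 4 were above all WT cells and the other 2 were among them. The difference of 0.69 was less than the SD between cells of 0.88, and dropped to 0.25 without KO cell 4 and to 0.09 under quantile normalization.

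Both probes of *Cnn2*, which encodes the calponin of non-muscle and smooth muscle cells, were higher on average in KO cells. At the first probe, WT cells 1 to 4 read 11.60, 11.19, 13.31 and 10.36, and KO cells 1 to 4 read 12.67, 13.68, 12.58 and 14.04. All KO cells were above 3 of the WT cells, and WT cell 3 was above KO cells 1 and 3. The second probe read 11.61, 9.47, 9.32 and 7.89 in WT cells and 10.89, 11.86, 10.69 and 11.49 in KO cells, and here the overlapping cell was WT cell 1.

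The *Cnn2* differences were 1.63 (3.08-fold, SD 1.02) and 1.66 (3.16-fold, SD 1.15). They stayed between 1.10 and 2.34 on leaving out any 1 cell and between 1.16 and 1.66 under the other scalings, floors and background correction. Each was larger than the SD between cells, and neither reached 5-fold. The WT cell that overlapped the KO cells was not the same for the 2 probes, whose r over the 8 cells was 0.65.

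*Cnn3*, the acidic calponin, had 1 WT cell below the other 7 on both of its informative probes. At its first probe, WT cells 1 to 4 read 5.64 (not detected), 8.48, 11.63 and 11.15, and KO cells 1 to 4 read 11.03, 12.82, 11.35 and 10.86. At its second probe, the values were 7.14, 12.46, 11.41 and 11.98 in WT cells and 14.77, 12.39, 11.49 and 10.29 in KO cells. WT cell 1 was the lowest cell on both probes, while the highest was KO cell 2 on the first and KO cell 1 on the second. The differences were 2.29 (4.89-fold, SD 2.05) and 1.49 (2.80-fold, SD 2.19). Without WT cell 1 they were 1.09 and 0.28, so that most of the difference at the second probe came from this cell, which also had the fewest detected probes of the 8 arrays. The part of this depth in the result was not tested. The third *Cnn3* probe was under the floor in all 8 cells.

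*Tagln*, or SM22 alpha, a marker of early smooth muscle and of the embryonic myocardium, was detected in all 8 cells but stayed near the floor. It read 7.60 and 6.10 in WT cells 1 and 2, and 6.74 and 8.22 in KO cells 1 and 4. The other 4 cells, 2 of each genotype, were at the floor. The difference was 0.31 (SD 1.08), and -0.24 without KO cell 4.

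*Tagln2*, the transgelin of non-muscle cells, was among the brightest of the set. On its first probe, WT cells 1 to 4 gave 14.53, 15.71, 16.29 and 15.78, and KO cells 1 to 4 gave 16.56, 16.22, 16.43 and 17.50. All KO cells but KO cell 2 were above all WT cells, and KO cell 2 was below WT cell 3 alone. The difference was 1.10 (2.15-fold) with an SD between cells of 0.66, from 0.75 to 1.34 on leaving out 1 cell and from 0.54 to 1.20 under the other settings. The second probe read 12.08, 12.61, 12.95 and 12.67 in WT cells and 13.15, 12.09, 12.70 and 13.93 in KO cells. At this probe KO cells 1 and 4 were above all WT cells and KO cells 2 and 3 were among them, with a difference of 0.39 (SD 0.60) that turned to -0.15 under quantile normalization, although the probes went together over the 8 cells (r = 0.82).

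*Csrp2*, which encodes the LIM-domain protein CRP2 of vascular smooth muscle, had the largest difference of the set. It was detected in all 8 cells, with WT cells 1 to 4 at 5.64, 13.48, 5.75 and 14.08 and KO cells 1 to 4 at 13.98, 17.84, 14.92 and 16.09. The WT cells were split, with 2 at or near the floor and 2 close to the KO cells. The low WT cells 1 and 3 had the fewest detected probes of the WT cells (11370 and 14293). KO cells 1 and 2, with 14166 and 12781 detected probes, were high for *Csrp2*. The part of this depth in the result was not tested. The genotypes overlapped only in that WT cell 4 exceeded KO cell 1, by 14.08 to 13.98. The difference was 5.97 (62.5-fold, SD 3.51), and remained 4.60 without WT cell 1 and 7.41 without WT cell 4, the extremes on leaving out 1 cell. Under the other scalings, floors and background correction it was between 4.99 and 6.13. Its fold depends on the floor, since a WT cell was at it. Of all 26833 probes detected in at least 1 cell, 99.9% had a difference no greater than that of *Csrp2*.

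*Csrp1*, the CSRP found in most tissues, had a spread between cells as large as its difference. On its only probe, WT cells 1 to 4 gave 13.18, 10.59, 11.00 and 7.04, and KO cells 1 to 4 gave 13.02, 15.54, 11.77 and 10.65. WT cell 4 was far below and KO cell 2 far above the other cells, and WT cell 1 was above 3 of the KO cells. The difference was 2.29 (4.89-fold) against an SD between cells of 2.33, and was 1.15 when WT cell 4 was left out and 3.20 when WT cell 1 was. The identity of this probe is uncertain, because the files place it on chromosome 3 whereas RefSeq places *Csrp1* on chromosome 1. WT cell 4, lowest for *Csrp1*, was the highest WT cell for *Csrp2*.

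**Figure D2:**
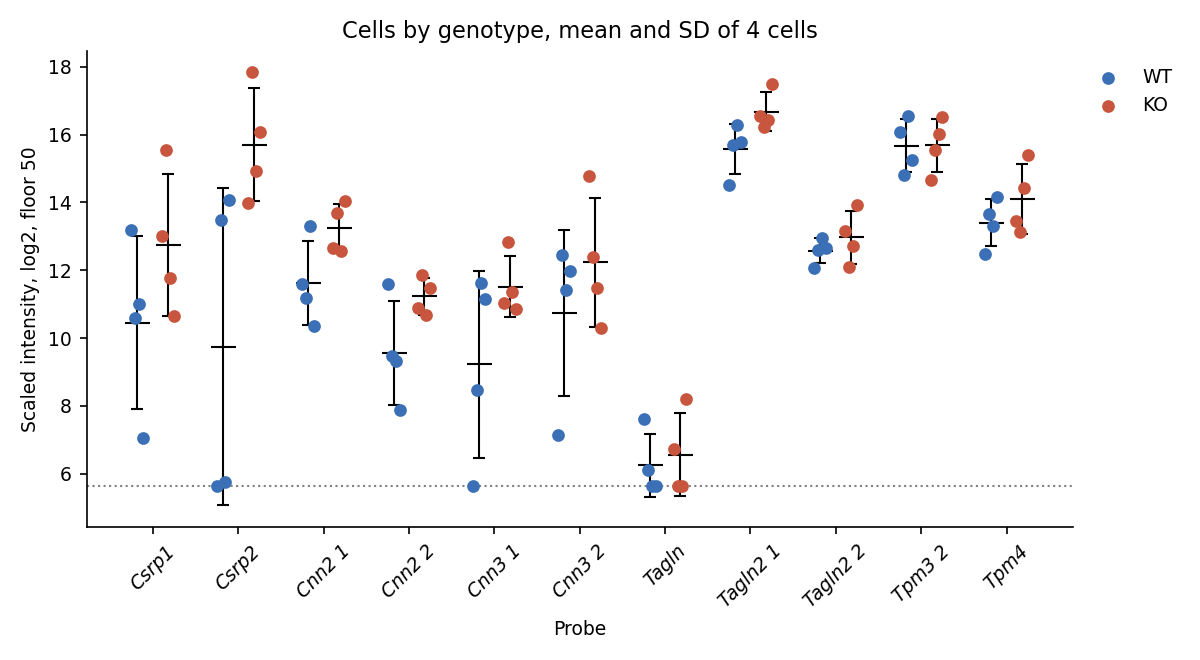
Signals of the probes of *Csrp1*, *Csrp2*, *Cnn2*, *Cnn3*, *Tagln*, *Tagln2*, *Tpm3* and *Tpm4* as the log2 scaled intensity. Points are cells, the horizontal ticks and bars are the mean and SD of 4 cells, and the dotted line is the floor. The WT cells of *Csrp2* fall in 2 levels, at 5.64 to 5.75 and at 13.48 to 14.08, and its KO cells lie between 13.98 and 17.84.

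Of the 21 probes, 19 were detected in at least 1 cell, and all 10 genes had such a probe. A difference of at least 5-fold, which is 2.32 on the log2 scale, with KO cells higher was seen at 3 of these 19 probes, those of *Csrp2* and the first 2 of *Tpm1*, against 2.83% of all 26833 detected probes. None of the 19 was at least 5-fold lower in KO cells, against 2.85% of all detected probes. The set was chosen with these values known, and nothing is read from the excess. Just inside the threshold was *Tpm1* probe 2 at 5.64-fold, and just outside were *Csrp1* and the first *Cnn3* probe, both at 4.89-fold.

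No probe of the set had all KO cells above all WT cells, against 1.1% of all detected probes, and none had all KO cells below, against 0.242%. The median difference over the 19 probes was 0.69, with 13 higher, 4 lower and 2 equal in KO cells. Over all 26833 detected probes the median was 0, with 10164 higher, 8211 lower and 8458 equal, and over the 7570 probes detected in all 8 cells it was 0.11. This median depended on the scaling, from 0.13 under quantile normalization to 0.69.

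**Figure D3:**
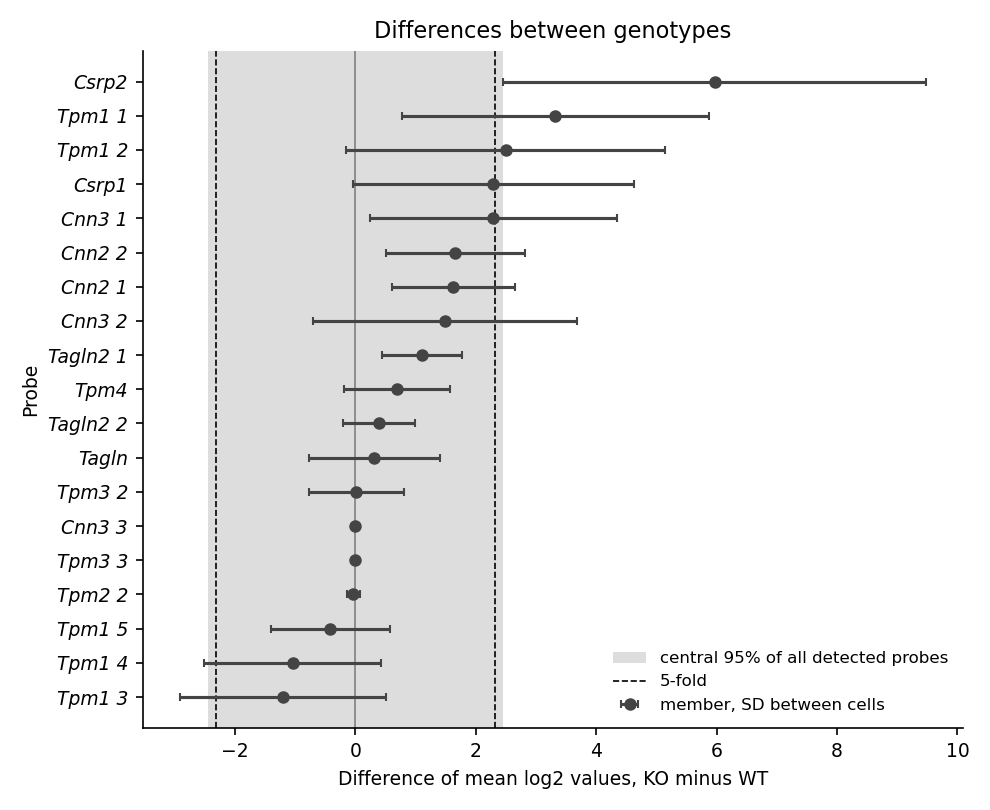
Mean log2 value of KO cells minus that of WT cells for the 19 probes detected in at least 1 cell. Points are probes, bars are the SD between cells pooled over the genotypes, dashed lines mark 5-fold, and the grey band spans the central 95% of all detected probes, from -2.46 to 2.45. *Csrp2* and *Tpm1* probes 1 and 2 lie beyond the band on the higher side, and no probe lies beyond it on the lower side.

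KO cells 2 and 4 held the highest value of most probes. Of the 17 probes above the floor in at least 1 cell, 6 were highest in KO cell 2 (*Tpm1* probes 1 and 2, and 1 probe each of *Cnn2*, *Cnn3*, *Csrp1* and *Csrp2*) and 5 in KO cell 4 (*Tpm4*, *Tagln*, both *Tagln2* probes and the other *Cnn2* probe). KO cell 3 and WT cell 4 were highest for none. The same count was not made over all probes of the arrays, so nothing about the set is read from it. Without KO cell 2, 1 probe (*Csrp2*) remained at least 5-fold higher in KO cells, against 4.02% of all detected probes. Without KO cell 4 there were 5, the 3 above with *Csrp1* and *Cnn3*, against 3.66%.

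**Figure D4:**
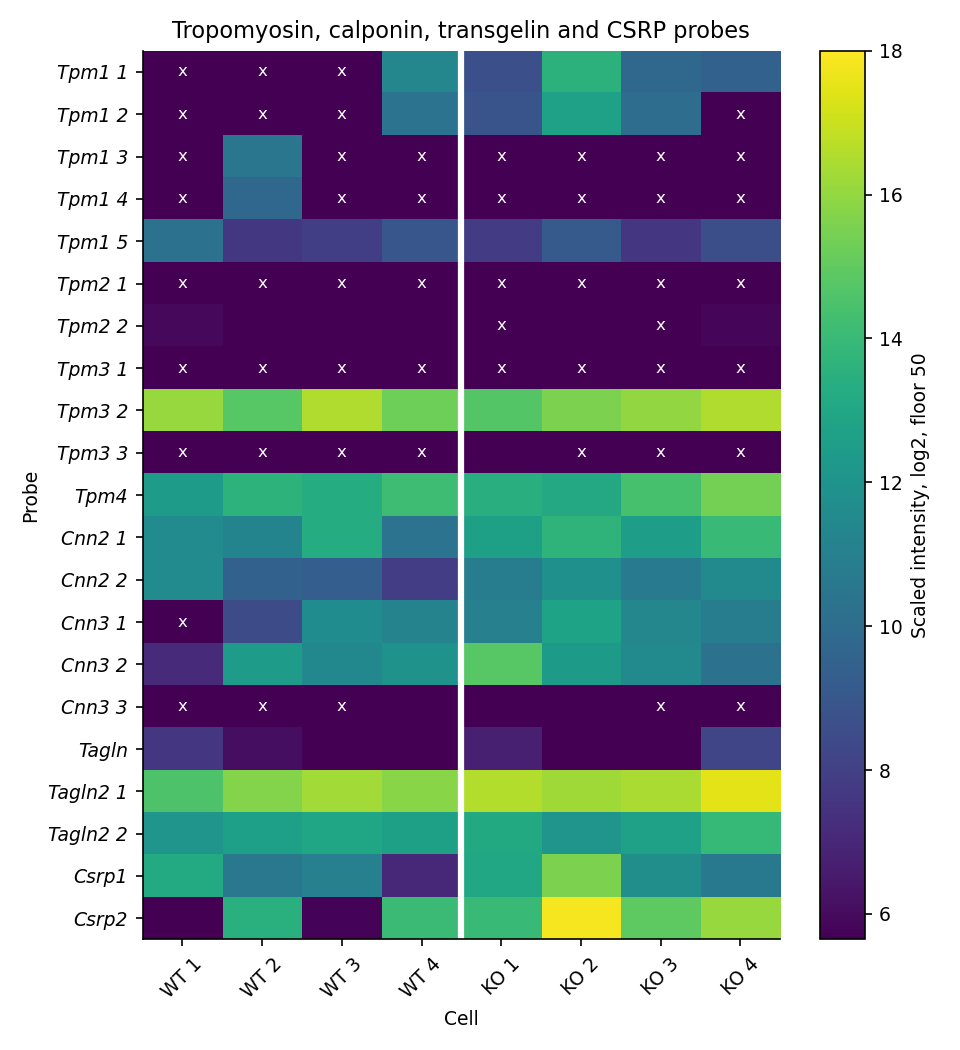
Log2 scaled intensity of all 21 probes in the 8 cells, with a white line between genotypes and an x where the probe was not detected. *Tpm3* (second probe), *Tpm4* and *Tagln2* are high in all cells, *Csrp2* is at 5.64 and 5.75 in WT cells 1 and 3, and *Tpm1* probe 1 carries an x in 3 WT cells and in no KO cell. Colours should be compared along a row and not between probes.

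Between the brightest probes of the genes, the pair that varied most alike over the 8 cells was *Tpm1* with *Csrp2* (r = 0.79). *Tpm4* with *Tagln2* (0.77) and *Cnn2* with *Tagln2* (0.68) followed, and the most opposed pair was *Tpm3* with *Cnn3* (-0.66). These are descriptions over 8 cells that share the same arrays and the same difference of genotype. The genes whose signal was most like that of *Csrp2*, among 12229 probes searched, were *Nasp*, a histone chaperone (r = 0.99), *Sdhb*, a subunit of succinate dehydrogenase (0.98), and *Mrpl20*, a mitochondrial ribosomal protein (0.98). *Csrp2* was at 5.64 and 5.75 in WT cells 1 and 3 and at 13.48 or above in all others. These low cells therefore weigh most in its r values. For *Tpm1* they were 2 long intergenic regions named by position (0.93 for both) and *Zyx*, the focal adhesion and actin-binding protein zyxin (0.93).

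Close relatives outside the set were nearly silent. *Cnn1*, the calponin of differentiated smooth muscle, and *Tagln3* were detected in no cell. *Csrp3*, the muscle LIM protein of cardiomyocytes, was detected in KO cell 4 alone, at 11.17.

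Proteins that work with tropomyosin on the filament are the tropomodulins and leiomodins, which cap or nucleate its pointed end, the troponins, which make it respond to calcium in striated muscle, and caldesmon. Of 16 such genes 12 were detected in at least 1 cell, at 13 of 19 probes, with a median difference of 0. No probe was at least 5-fold higher in KO cells, against 2.83% of all detected probes, and 1 was at least 5-fold lower, against 2.85%. The lower probe was that of *Tmod3*, the tropomodulin of most non-muscle cells, which read 5.64, 8.26, 11.87 and 10.10 in WT cells 1 to 4, 8.68 in KO cell 4 and the floor in the other KO cells (difference -2.57, SD 2.17). *Tmod4* went the other way, with 6.75, 6.24, 7.09 and 5.64 in WT cells and 7.78, 6.77, 9.97 and 7.73 in KO cells. Its difference was 1.63 (SD 1.06), with KO cell 2 alone among the WT cells. *Tnni1*, the troponin I of slow and embryonic muscle, was above the floor in WT cell 2 (12.09) and KO cells 3 and 4 (11.87 and 11.37). *Tnni2*, *Tnnc2* and 1 *Tnnt1* probe were detected in 5 or more cells but did not exceed 6.03 in any.

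Smooth muscle contractile genes varied from cell to cell within both genotypes. Of 7 genes 4 were detected, at 6 of 9 probes, and the median difference was -0.15. None of these probes was at least 5-fold higher or lower in KO cells, against 2.83% and 2.85% of all detected probes. *Acta2*, smooth muscle alpha-actin, read 6.15 and 13.80 in WT cells 1 and 2, 12.86 in KO cell 4 and the floor in the other 5 cells. *Smtn*, the filament-associated smoothelin, was split within both genotypes, at 5.64, 12.07, 10.40 and 9.32 in WT cells and 5.64, 6.76, 13.91 and 9.94 in KO cells at its brighter probe. *Myl9*, a regulatory light chain, exceeded the floor in WT cell 2 (7.36) and *Mylk*, its kinase, in KO cell 1 (5.78). *Actg2*, *Myh11* and *Des* were detected in no cell.

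The regulators of this gene group differed from cell to cell. Of 4 genes 3 were detected, at 4 of 8 probes, 1 at least 5-fold higher in KO cells, against 2.83% of all detected probes, and *Myocd* was not detected. The median difference was 1.30 over these 4 probes. *Mkl2*, a myocardin-related coactivator of SRF, had signal at 1 probe, which was not detected in WT cells. It read 7.63 in KO cell 1 and 13.15 in KO cell 4. Its difference was 2.37 (5.18-fold, SD 2.51), a fold that depends on the floor, at which the WT cells and KO cells 2 and 3 stood. The other *Mkl2* probes were detected in no cell. *Mkl1* was high at 1 probe in WT cell 2 (12.55) and KO cell 1 (14.74), and at the floor there in the other cells. Its other probe was detected in no cell. One *Srf* probe read 13.66 in KO cell 4 and at most 6.73 in the other cells, and its other probe read 8.54 in WT cell 1 and 8.19 and 9.07 in KO cells 1 and 2. KO cell 2, highest for *Tpm1* and *Csrp2*, was at the floor for *Mkl1*, at 6.04 at the first *Srf* probe and, with 9.07, the highest cell at the other.

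**Figure D5:**
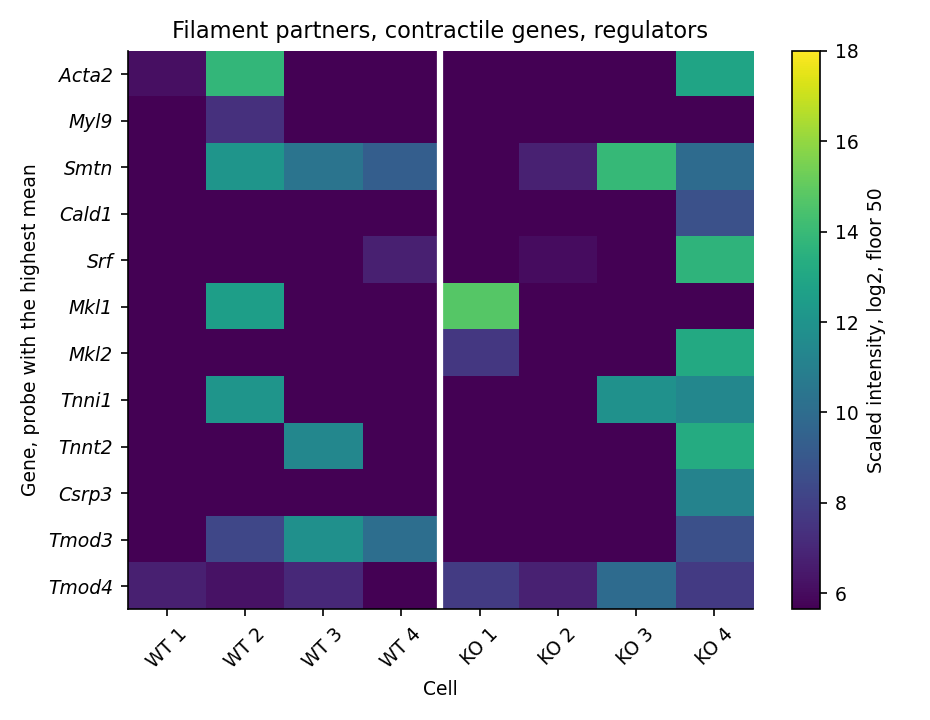
Log2 scaled intensity of 12 genes from the lists of filament partners, relatives, smooth muscle contractile genes and regulators in the 8 cells, each by its probe with the highest mean and with a white line between genotypes. *Acta2* is high in WT cell 2 (13.80) and KO cell 4 (12.86), and *Tmod3* is at the floor in KO cells 1 to 3. *Tmod4* is above the floor in 7 cells and *Smtn* in 6, whereas *Myl9*, *Cald1* and *Csrp3* are above it in 1 cell each.

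The labelled compartment was checked against marker genes. All 10 endocardial or endothelial genes were detected in at least 1 cell, with summed scaled intensities from 10037 to 35685 in WT cells and from 7045 to 79403 in KO cells. Of 9 cardiomyocyte genes 8 were detected in at least 1 cell (*Tbx5* in none), with sums from 318 to 34056 in WT cells and from 1001 to 48719 in KO cells. In WT cell 2 (34056 against 10037), KO cell 1 (48719 against 7045) and KO cell 4 (28948 against 13906) the cardiomyocyte sum exceeded the endothelial sum, which goes against the labelled compartment, although the sums come from different probes and are not on 1 scale. KO cell 1 had both the highest cardiomyocyte and the lowest endothelial sum. Its cardiomyocyte sum came mostly from *Actc1* (15.32) and *Myl4* (12.84). *Myl7* was at 7.40 and *Myh7* at 6.96 in this cell, and *Tnnt2*, *Myh6*, *Actn2*, *Nkx2-5* and *Tbx5* were at the floor. *Actc1*, cardiac alpha-actin, was detected in all 8 cells and was, like *Csrp2* and *Tpm1* probes 1 and 2, at least 5-fold higher in KO cells. It read 6.38, 12.80, 8.81 and 12.06 in the WT cells and 15.32, 9.17, 12.70 and 13.55 in the KO cells (difference 2.67, SD 2.79). *Emcn*, an endothelial sialomucin, was at least 5-fold higher as well, with 6.84 in WT cell 4 and 8.52, 13.36 and 12.54 in KO cells 1 to 3, and the floor in the others (difference 4.07, SD 2.58). KO cell 2, the highest for *Csrp2* and *Tpm1*, had the lowest cardiomyocyte sum of the KO cells (1001) and the highest endothelial sum of all cells. With WT cell 2 and KO cells 1 and 4 left out, WT cells 1, 3 and 4 and KO cells 2 and 3 remained. The differences were then 7.89 for *Csrp2*, 4.17 for *Tpm1* probes 1 and 2, and -0.65 for *Tagln*. Over all 8 cells those of *Csrp2* and *Tpm1* were smaller. WT cells 1 and 3, low for *Csrp2* at 5.64 and 5.75, were kept, and WT cell 2, at 13.48, was not. The part of cardiomyocyte signal in these differences was not tested. In these 5 cells, 5 probes were at least 5-fold higher in KO cells, against 6.46% of all detected probes, and 1 (*Csrp2*) had all KO cells above all WT cells, against 4.13%.

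Of 3 smooth muscle markers, *Cnn1* and *Myh11* were detected in no cell and *Acta2* gave sums from 28.9 to 14309 in WT cells and from 19.5 to 7428 in KO cells. Of the 6 cells with *Csrp2* at 13.48 or above, 2 had *Acta2* above the floor, WT cell 2 (13.80) and KO cell 4 (12.86). None of 5 endoderm and 4 proepicardium genes was detected, and none of 5 blood genes was above the floor.

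Promoters of the set were searched for 3 motifs, on both strands, in 250 bases before to 50 bases after each start from RefSeq (GRCm38.p6), which held 10 promoters for 8 of the 10 genes. A match is a description of letters and not of binding. The CArG box, the element that SRF binds, was in 1.63% of all 32851 promoters and in that of *Cnn2* alone of these 8 genes, 56 bases before its start. The stretch with this match is shown, on the plus strand of chr10:79988500-79988599, with the box in capitals. Whether the match bears on the signal of *Cnn2* was not tested.
*Cnn2* promoter: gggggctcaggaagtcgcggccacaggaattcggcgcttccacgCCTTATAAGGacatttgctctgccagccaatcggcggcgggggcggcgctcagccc

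The M-CAT core CATTCC, which TEAD factors bind, was in the promoters of *Tagln2* (2 matches) and *Tpm1*, and in 14.7% of all promoters. The letters ACAAT, the core bound by SOX proteins, were in both promoters of *Tpm3* and in 31.0% of all promoters, and were found at no other of the 8 genes. The bright probe of *Tpm3* differed by 0.01 between genotypes, and any link between these letters and the signal was not tested. *Tagln* and *Csrp2* had no promoter entry in the table.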

How the data were processed

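The files deposited by the authors are scanner output (Agilent Feature Extraction 12.0.2.2), with the intensity of each spot background-subtracted and detrended, and arrays not normalized to each other. The other deposited flags mark outlier spots and signal over background. Control and outlier spots were dropped, and spots of a probe averaged, which left 55295 of 55681 probes. A probe was detected where over 50% of its spots were well above background. Arrays were scaled to the 50th percentile of the 7570 probes detected on all 8, floored at 50 and put on the log2 scale. The 5-fold threshold follows the methods of the study. Depth, as detected probes, ran from 11370 to 18175, and the number of arrays limits the precision.

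Members and gene lists were chosen with earlier results of these data known. All probes of each member are named, and a gene of the lists of relatives, partners, contractile genes and regulators if detected in at least 4 cells or at least 5-fold apart. Cell type markers are given by counts and sums, with those at least 5-fold apart named, as are those behind the cardiomyocyte sum of KO cell 1. For the likeness of *Tpm1* and *Csrp2*, the 3 closest genes were taken. Alternatives were another percentile, all probes, the floor first, quantile normalization, normexp (offset 50), floors of 10 and 200, another detection call, a filter on detection, the mean of all probes, and leaving out each cell. No p-value was computed, since each genotype is 1 sample. The steps were tested on simulated data. Python 3.11.15, numpy 2.4.6, pandas 2.3.3, matplotlib 3.10.9, R 4.3.3 and limma 3.58.1 were used. Probe coordinates are on mm9, as in the files, and RefSeq names and promoters on GRCm38.p6.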

Additional observations from a re-analysis of the deposited data

Results flagged for a closer look

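Of 56 sets of 4 cells tested for a single cell far from the others, 20 passed Dixon's critical value for 4 values, used as a screen of cells and not as a test of genotype. Chance flags about 1 in 20 groups where values are not floored. In 18 of the 20 the other 3 cells were at the floor, which fixes the ratio at 1 whatever the remaining value, so that the number passed cannot be set against chance. Among the genes of the set, these were WT cell 4 at *Tpm1* probes 1 and 2, WT cell 2 at *Tpm1* probes 3 and 4, and WT cell 1 and KO cell 4 at *Tpm2*. Among the listed genes, they were WT cell 1 at *Tnnc2*, *Tnni2* and 1 *Srf* probe, WT cell 2 at *Tnni1*, *Myl9* and *Mkl1*, WT cell 4 at the other *Srf* probe, KO cell 1 at *Tnni2*, *Mylk* and *Mkl1*, and KO cell 4 at *Tmod3* and *Acta2*. In the other 2 sets, WT cell 2 stood above the rest at *Acta2* (ratio 0.938) and KO cell 4 at *Srf* (ratio 0.950). All 20 were high cells.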

How the results depend on the processing

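No paired analysis was possible because no test was made and the numbers of the cells are names only. The count of probes at least 5-fold higher in KO cells was 3, against 2.83% of all detected probes. With a floor of 200 it was 1 (*Csrp2*), against 1.38%. Leaving out 1 cell gave between 1 (KO cell 2 left out, against 4.02%) and 5 (KO cell 4 left out, against 3.66%). *Csrp2* was among them under every one of these settings. *Tpm1* probe 2 fell below the threshold under the 75th percentile, all probes for the percentile, the floor before scaling and normexp. Under these, 2 probes remained, against 2.25%, 2.21%, 2.17% and 2.50% of all detected probes. *Tpm1* probe 2 also fell below the threshold without WT cells 1, 2 or 3 or KO cells 2 or 3. The count of probes with all KO cells above all WT cells was 0, against 1.1% of all detected probes. Leaving out 1 cell gave from 0 to 2, with the share of all detected probes in brackets. The count was 2 without WT cell 3 (*Cnn2* and *Tagln2*, 2.34%) or WT cell 4 (*Tpm1* and *Csrp2*, 1.34%). It was 1 without WT cell 1 (*Cnn2*, 2.53%), KO cell 1 (*Csrp2*, 1.96%) or KO cell 2 (*Tagln2*, 1.60%). It was 0 without WT cell 2 (1.35%), KO cell 3 (2.27%) or KO cell 4 (1.63%). A further alternative, chosen after seeing the data, left out the 3 cells whose cardiomyocyte sum exceeded the endothelial sum. The counts of probes at least 5-fold higher and of probes with all KO cells above were then 5 and 1, against 6.46% and 4.13%. The counts of lower probes stayed at 0, against 2.85% (at least 5-fold lower) and 0.242% (all KO cells below) of all detected probes in the main setting. The median difference was 0.13 to 1.29 under the alternatives and 0.25 to 1.02 on leaving out 1 cell. The scalings moved the median difference of probes detected in all cells from 0.11 to -0.02 (75th percentile), while that of all detected probes stayed at 0. The mean of all *Tpm1* probes differed by 0.63, against 3.32 for its brightest probe. Signs turned for *Tpm2*, *Tpm3*, *Tagln*, *Tpm1* probe 5 and the second *Tagln2* probe, all inside the spread between cells. Signal over background limits what is said of *Tpm2* and *Tpm1* probes 3 and 4, at the floor in most cells, and of *Tagln*, which was near it.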
